A study of Homo sapiens with 6 samples.

Results

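The genes described here are the 9 of the hexosamine pathway and of O-GlcNAc cycling, out of 24526 genes in the deposited table: UAP1L1, UAP1, GFPT1, GFPT2, GNPNAT1, PGM3, OGT, OGA and NAGK. Each was taken by its gene symbol. UAP1L1 was selected on its transcript level, which was higher after RIPK4 silencing in these same libraries, so its difference between the groups is given as a description without a test. The other 8 were taken for their place in the pathway. RNA came from WM266.4, an established human melanoma cell line, 48 h after transfection. For 3 libraries (RIPK4.si) the cells had received an siRNA against RIPK4, a synthetic RNA duplex that leads to loss of the matching transcript, and for the other 3 (neg.si) a negative control siRNA. A single RIPK4 siRNA was used, so an effect of its sequence on other transcripts and an effect of losing RIPK4 cannot be told apart.

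The hexosamine pathway turns fructose-6-phosphate and glutamine into UDP-GlcNAc, the sugar donor for N-glycans, hyaluronan, heparan sulfate and GPI anchors. The same donor is used inside the cell by OGT, which places single GlcNAc residues on serines and threonines of nuclear and cytosolic proteins, and OGA removes them. The pathway is therefore often described as a sensor of nutrient supply, and the glutamine-using first step is its usual point of control.

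The silencing was visible in every library. RIPK4 had 85.8, 76.5 and 54.7 CPM (counts scaled to TMM-normalized library size) in replicates 1, 2 and 3 of neg.si, and 19.9, 16.7 and 21.5 CPM in those of RIPK4.si. In edgeR the log2 fold change was -1.90 with a standard error of 0.203 (adjusted p = 0.0102). With 1 library left out it lay between -2.06 and -1.74, and the adjusted p was 0.106 when neg.si replicate 2 was dropped and 0.094, 0.0622 and 0.0725 when RIPK4.si replicate 1, 2 or 3 was (edgeR). Libraries held between 28464057 and 31688095 counts. The pigment cell genes fixed as markers were all measured, at 3710 to 3921 CPM in sum in neg.si and 2592 to 2757 CPM in RIPK4.si. Of these 8, edgeR called 1 lower in RIPK4.si (PMEL, with an adjusted p of up to 0.129 over the alternatives) and DESeq2 called 3 (PMEL, DCT and TYR), against 0.393% of all genes called lower with edgeR and 1.78% called with DESeq2. An unadjusted p under 0.05 was found for 4 of the 8, against 10.8% of all genes, and their median log2 fold change was -0.31. The part of this difference in the results that follow was not tested. Of the 8 markers of keratinocytes, fibroblasts, leukocytes and endothelial cells, CDH5 was not analysed here and the other 7 summed to between 1.06 and 2.84 CPM, with 3 tested and 0 called by either tool or at an unadjusted p under 0.05. The neg.si libraries differed in how a gene's level, relative to its own mean over all libraries, followed the GC content of its transcript. Across genes, the rank correlation of this relative level with GC content was 0.564, 0.0811 and -0.555 in replicates 1, 2 and 3 of neg.si. In RIPK4.si it was between -0.0839 and 0.167. Since the mean is shared, the values of the libraries depend on each other, and genes are not independent replicates. In bulk RNA, fewer cells that express a gene and less of its RNA per cell cannot be told apart.

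UAP1L1 is a paralog of UAP1, and GFPT2 of GFPT1, so it matters whether reads can be assigned to one or the other. The coding sequences of UAP1L1 (1521 bases) and UAP1 (1566 bases) were identical at 932 of 1459 aligned bases, or 63.9%, and the longest stretch of bases that they share is 11, against a read length of 100. GFPT2 and GFPT1 were identical at 72.2% of aligned bases, with a longest shared stretch of 18. Shown here are the most alike 60 bases of each pair that lie inside a single coding exon of both genes, with capitals at the bases that differ within the pair. They come from the GENCODE release 44 canonical transcripts on GRCh38. The UAP1L1 stretch lies on chr9:137079363-137079422 (plus strand, exon 5 of 9), that of UAP1 on chr1:162587582-162587641 (plus strand, exon 6 of 11), that of GFPT2 on chr5:180316387-180316446 (minus strand, exon 13 of 19) and that of GFPT1 on chr2:69338491-69338550 (minus strand, exon 14 of 20).
UAP1L1: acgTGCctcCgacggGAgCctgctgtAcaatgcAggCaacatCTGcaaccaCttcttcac
UAP1: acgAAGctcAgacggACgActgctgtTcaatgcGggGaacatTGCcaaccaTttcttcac
GFPT2: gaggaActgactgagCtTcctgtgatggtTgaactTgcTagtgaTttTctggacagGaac
GFPT1: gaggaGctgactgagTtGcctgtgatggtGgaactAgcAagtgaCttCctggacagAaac

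Even in these stretches the UAP1 pair differed at 14 of 60 bases and the GFPT pair at 9 of 60. The counts of UAP1L1 and UAP1, and of GFPT1 and GFPT2, are therefore described as those of separate genes.

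UAP1L1 (ENSG00000197355.11, chromosome 9 of GRCh38, 137077517 to 137084539, plus strand) is the gene for which the set is named. It had 644, 556 and 578 counts in replicates 1, 2 and 3 of neg.si, and 1627, 1732 and 1654 counts in those of RIPK4.si. Scaled to library size, this was 20.8, 18.5 and 18.2 CPM in neg.si and 55.4, 59.9 and 53.2 CPM in RIPK4.si. Every RIPK4.si library lay above every neg.si library, and within each group the libraries were close together, the highest being 1.14 times the lowest in neg.si and 1.13 times in RIPK4.si. Means were 19.2 ± 1.42 CPM for neg.si and 56.2 ± 3.45 CPM for RIPK4.si (SD, n = 3 each), 2.93-fold higher, or 1.55 on the log2 scale. This is the value that chose the gene. UAP1L1 overlaps no other annotated gene, so none of its exon bases is shared with a gene on the opposite strand.

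UAP1 (chromosome 1, 162561506 to 162599842, plus strand) encodes the enzyme of the last step, which joins GlcNAc-1-phosphate to UTP to give UDP-GlcNAc. It stood at 64.9, 70.8 and 63.4 CPM in replicates 1, 2 and 3 of neg.si, and at 68.4, 96.2 and 76.8 CPM in RIPK4.si. RIPK4.si replicate 1 lay within the neg.si range and the other two above it. The log2 fold change was 0.28 (95% interval -0.09 to 0.65, adjusted p = 0.641, edgeR), so a difference was not shown. Within each library, UAP1L1 made up 24.3%, 20.7% and 22.3% of the counts of UAP1 plus UAP1L1 in neg.si and 44.8%, 38.4% and 40.9% in RIPK4.si. The share was 22.4% ± 1.77 (SD, n = 3) in neg.si and 41.4% ± 3.21 (SD, n = 3) in RIPK4.si. The sum of both genes was 85.5 ± 3.85 CPM for neg.si and 137 ± 17.0 CPM for RIPK4.si (SD, n = 3 each). Share and sum both include UAP1L1, chosen for its rise, so they are given without a test. RNA counts do not measure the activity of either protein. UAP1 stayed the larger of the pair in all 6 libraries.

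**Figure D1:**
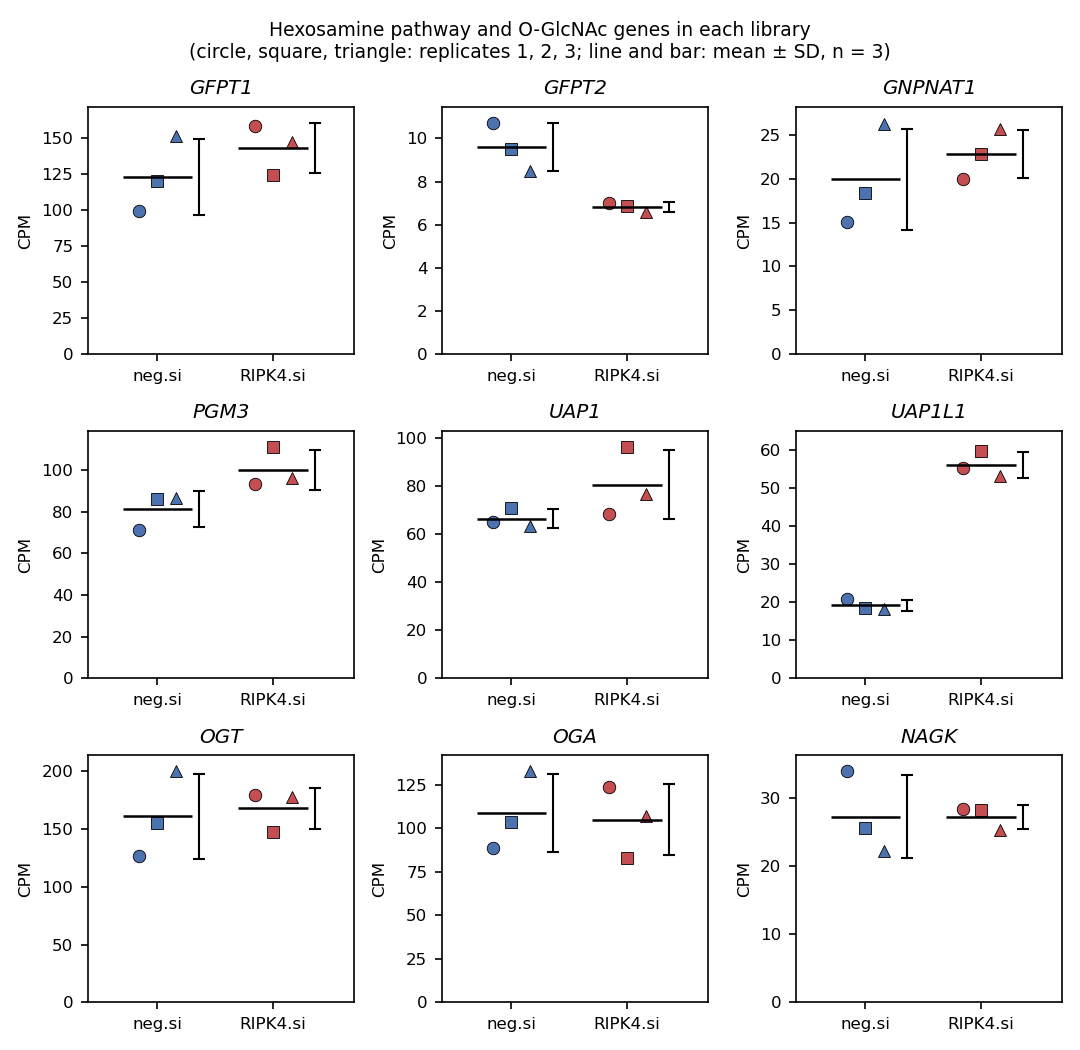
Level of each of the 9 genes in CPM (vertical axes, from 0) in the 3 neg.si (blue) and 3 RIPK4.si (red) libraries, with the group mean as a line and its SD as a bar. UAP1L1, which was chosen for its rise in these libraries, lies at 18.2 to 20.8 CPM in neg.si and 53.2 to 59.9 CPM in RIPK4.si. UAP1, GFPT1, GNPNAT1, OGT, OGA and NAGK overlap between the groups.

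None of the other 8 genes had an adjusted p under 0.05 with edgeR, and none did with DESeq2. Over all 16297 genes tested, 0.767% were called with edgeR and 1.78% of 24526 with DESeq2, so 0 of 8 is near the background. The 24526 genes include some to which DESeq2 gave no adjusted p, so its share over genes with an adjusted p would be higher. A single gene, GFPT2, had an unadjusted p under 0.05, as did 10.8% of all genes tested. The median log2 fold change of the 8 was 0.13, against -0.023 for all genes tested. All 9 genes passed the filter on low counts.

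The first and rate-limiting step, the transfer of an amino group from glutamine to fructose-6-phosphate, is carried out by GFPT1 and GFPT2. GFPT1 (chromosome 2, 69319769 to 69387254, minus strand) was the more abundant, with 99.3, 120 and 151 CPM in neg.si and 158, 124 and 147 CPM in RIPK4.si. The groups overlapped, and the log2 fold change was 0.21 (95% interval -0.21 to 0.63, adjusted p = 0.81, edgeR). GFPT2 (chromosome 5, 180300698 to 180353336, minus strand) had 10.7, 9.52 and 8.5 CPM in neg.si and 7.02, 6.85 and 6.59 CPM in RIPK4.si. All 3 RIPK4.si values were below the 3 of neg.si, and the groups were likewise separate in 17.6% of all genes tested. Means were 9.58 ± 1.11 CPM for neg.si and 6.82 ± 0.216 CPM for RIPK4.si (SD, n = 3 each). GFPT2 had a log2 fold change of -0.49 (95% interval -0.89 to -0.09, unadjusted p = 0.0207, adjusted p = 0.326, edgeR), which did not pass over all genes.

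GFPT2 made up 9.74%, 7.37% and 5.32% of the counts of GFPT1 plus GFPT2 in replicates 1, 2 and 3 of neg.si, and 4.25%, 5.22% and 4.29% in RIPK4.si. Again the groups did not overlap, but neg.si replicate 3 and RIPK4.si replicate 2 were nearly equal. The mean share was 7.48% ± 2.22 (SD, n = 3) against 4.59% ± 0.546 (SD, n = 3), a difference of -2.89 percentage points (two-sided exact permutation test, p = 0.1, the lowest possible with 3 against 3). GFPT1 has a transcript GC content of 38.2% and GFPT2 of 51.7%, and the share within neg.si moved with the GC trend of the libraries. The part of that trend in the difference between the groups was not tested.

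GNPNAT1 acetylates glucosamine-6-phosphate, and PGM3 turns the product into GlcNAc-1-phosphate. GNPNAT1 (chromosome 14, 52775193 to 52791668, minus strand) had 15.1, 18.4 and 26.2 CPM in neg.si and 20, 22.8 and 25.6 CPM in RIPK4.si. All 3 RIPK4.si libraries fell inside the neg.si range, and the log2 fold change was 0.20 (95% interval -0.30 to 0.70, adjusted p = 0.869, edgeR). PGM3 (chromosome 6, 83161150 to 83193936, minus strand) had 71.1, 86.2 and 86.4 CPM in neg.si and 93.2, 111 and 95.9 CPM in RIPK4.si. Its groups did not overlap, with 81.3 ± 8.77 CPM against 100 ± 9.74 CPM (SD, n = 3 each). The log2 fold change of 0.30 had a 95% interval of -0.04 to 0.64 and did not pass the test (adjusted p = 0.541, edgeR). Counting ignored strand, and within the deposited gene bounds PGM3 shares 1142 exon bases with DOP1A and GNPNAT1 1426 with a long non-coding RNA gene, each on the opposite strand, so reads there could not be told apart by strand.

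OGT and OGA, the pair of enzymes that write and erase O-GlcNAc, had no shown difference between the groups. OGT (chromosome X, 71533104 to 71575892, plus strand) stood at 127, 155 and 200 CPM in neg.si and at 179, 147 and 178 CPM in RIPK4.si, which is a log2 fold change of 0.07 (95% interval -0.36 to 0.49, adjusted p = 0.964, edgeR). OGA (chromosome 10, 101784443 to 101818465, minus strand) stood at 88.5, 104 and 133 CPM in neg.si and at 124, 83.3 and 107 CPM in RIPK4.si, which is a log2 fold change of -0.05 (95% interval -0.51 to 0.40, adjusted p = 0.975, edgeR). In OGT the neg.si libraries spanned the whole range of the 6 libraries, and in OGA all but RIPK4.si replicate 2 lay within it. The highest neg.si library was 1.57 times the lowest for OGT and 1.5 times for OGA.

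OGT and OGA were both lowest in neg.si replicate 1 and highest in replicate 3 of that group, and their ratio varied less there than either gene. The ratio of OGT to OGA counts was 1.43, 1.49 and 1.5 in neg.si and 1.44, 1.77 and 1.67 in RIPK4.si. RIPK4.si replicate 1 lay within the neg.si range, and the other two lay above it. On the log2 scale the mean was 0.56 ± 0.0353 (SD, n = 3) in neg.si and 0.70 ± 0.152 (SD, n = 3) in RIPK4.si, a difference of 0.14 (two-sided exact permutation test, p = 0.3).

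NAGK, the kinase that returns GlcNAc freed from degraded glycans to the pathway, had no measured shift in its mean (chromosome 2, 71064344 to 71079808, plus strand). It had 34.0, 25.7 and 22.2 CPM in neg.si and 28.4, 28.3 and 25.3 CPM in RIPK4.si, means of 27.3 CPM in both groups. Its log2 fold change was 0.00, with a 95% interval of -0.42 to 0.43 (adjusted p = 0.998, edgeR). NAGK shares 348 exon bases with a long non-coding RNA gene on the opposite strand.

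**Figure D2:**
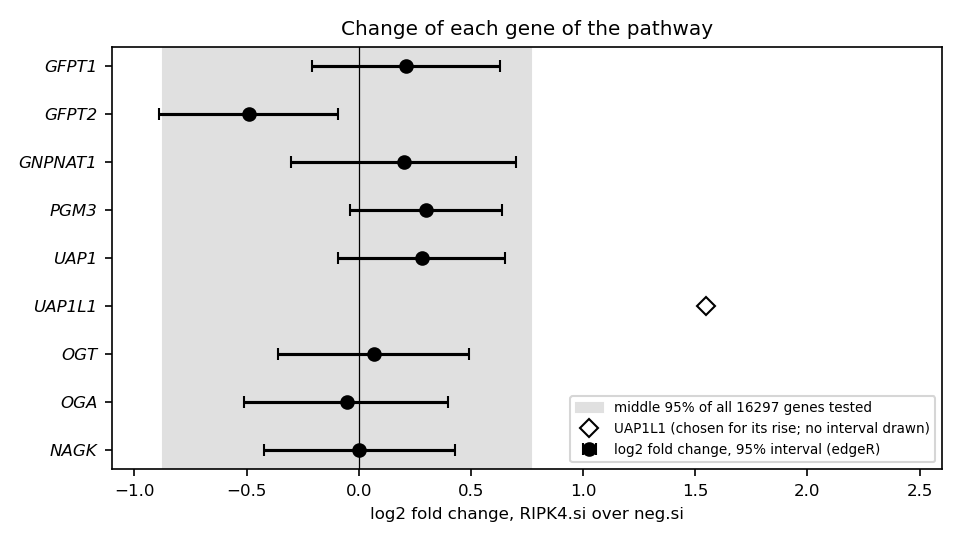
Log2 fold change of RIPK4.si over neg.si (horizontal axis) for the 9 genes; points with bars are edgeR estimates with 95% intervals, the open diamond is UAP1L1, and the grey band spans the middle 95% of all genes tested (-0.87 to 0.77). The estimates of the other 8 genes lie between -0.49 and 0.30, inside the band, and that of UAP1L1 lies at 1.55.

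**Figure D3:**
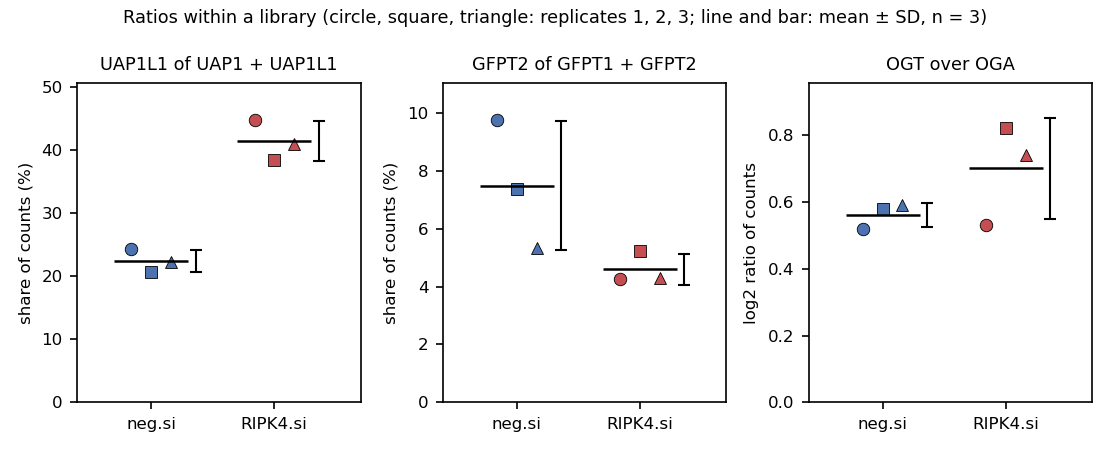
Ratios computed within each library, which do not depend on its size: the share of UAP1L1 in the UAP1 pair (%), the share of GFPT2 in the GFPT pair (%) and the log2 ratio of OGT to OGA counts, with group means and SD. The first lies at 20.7% to 24.3% in neg.si and 38.4% to 44.8% in RIPK4.si, the second is lower in RIPK4.si by a small gap, and the third overlaps.

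Levels of different genes are compared per kilobase of the canonical transcript (CPM per kb). In neg.si the order was OGT at 29.5, OGA at 21.0, UAP1 at 18.7, GFPT1 at 14.2, PGM3 at 13.4, NAGK at 11.5, UAP1L1 at 5.72, GNPNAT1 at 5.14 and GFPT2 at 3.16 CPM per kb. Library ranges of neighbours were separate between UAP1 and GFPT1, between NAGK and UAP1L1 and between GNPNAT1 and GFPT2, and overlapped for the other neighbours. In RIPK4.si, UAP1L1 stood at 16.8 ± 1.03 CPM per kb (SD, n = 3), next after OGT (30.9), UAP1 (22.6) and OGA (20.2), and its range overlapped those of OGA before it and GFPT1 (16.5) after it. The order depends on the lengths used. Over all annotated exons in place of the canonical transcript, UAP1 came first in neg.si at 20.6 CPM per kb, ahead of OGT at 16.4 and OGA at 15, and UAP1L1 stood at 3.64, GNPNAT1 at 4.96, PGM3 at 4.66 and NAGK at 3.07 CPM per kb in neg.si. In RIPK4.si the same measure gave 25 for UAP1, 17.2 for OGT, 10.7 for UAP1L1, 16.2 for GFPT1 and 5.74 for PGM3. The canonical transcript of UAP1 has 1398 of its 3559 bases beyond the end of the deposited gene, which lowers its level per kb of that transcript.

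The genes differed in base composition, and the neg.si libraries lay apart by different amounts among them. The transcripts of UAP1 (38.5% GC), GFPT1 (38.2%), PGM3 (39.0%), GNPNAT1 (39.8%), OGT (42.1%) and OGA (44.1%) are poorer in GC than those of GFPT2 (51.7%), NAGK (52.6%) and UAP1L1 (61.5%). From neg.si replicate 1 to neg.si replicate 3 the log2 level was higher by 0.61 for GFPT1, 0.79 for GNPNAT1, 0.65 for OGT and 0.59 for OGA, and by 0.28 for PGM3. The medians of all genes tested were 0.60 between 35% and 40% GC and 0.36 between 40% and 45% GC, the same direction as these genes. NAGK differed by -0.62 and GFPT2 by -0.33, where the median between 50% and 55% GC was -0.15. UAP1L1 differed by only -0.19, where the median of the 1737 genes between 60% and 65% GC was -0.75, and UAP1 by -0.03 where the median was 0.60. After removal of each library's GC trend, chosen with the trend known, the log2 fold change of UAP1L1 was 1.5, and none of the other 8 genes was called, the smallest adjusted p being 0.114 for GFPT2 (edgeR).

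**Figure D4:**
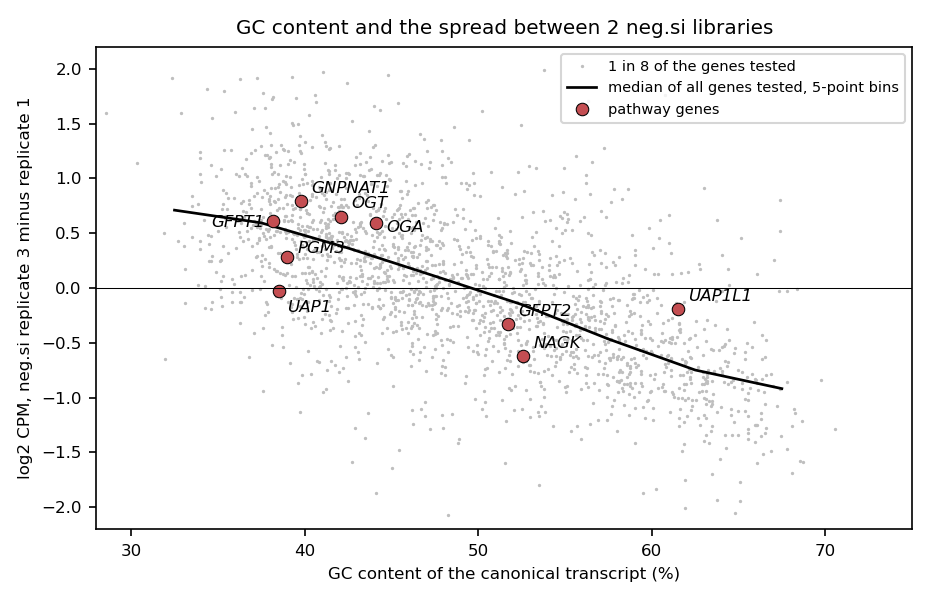
Difference in log2 CPM between neg.si replicates 3 and 1 (vertical axis) against the GC content of the canonical transcript in percent (horizontal axis), for the pathway genes (red), 1 in 8 of the genes tested (grey) and the median of all genes tested by 5-point bins (line). GFPT1, GNPNAT1, OGT and OGA lie on or above the line at 0.59 to 0.79, and UAP1L1 lies above it at -0.19.

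Genes were also ordered by how alike their levels over the 6 libraries were to those of UAP1L1. Likeness was the root mean square difference between log2 levels, each centred on its own mean, among 9206 named genes with a mean of at least 10 CPM. The nearest was MICB, a stress-induced ligand of the receptor NKG2D (0.104), with 12.4, 12.5 and 11.8 CPM in neg.si and 35.2, 38.1 and 40.2 CPM in RIPK4.si. Next came LOXL3, a lysyl oxidase (0.126), YBX3, a cold shock domain protein (0.138), CCN1, a matricellular protein (0.155), and SQOR, the mitochondrial sulfide oxidase (0.16). These 5 genes were 2.47-fold to 3.30-fold higher in RIPK4.si, a difference that the measure itself selects. Within the pathway the nearest were PGM3 at 0.643 and UAP1 at 0.657, and the farthest GFPT2 at 1.02. Since UAP1L1 was selected on its group difference, these distances largely restate the fold changes given above.

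A further 57 genes that feed the pathway or use its product were set out in 6 lists, of which 54 were tested. With edgeR, 0 of them were called higher and 1 was called lower, where 0.374% and 0.393% of all genes tested were called higher and lower, and 7 had an unadjusted p under 0.05, near the 10.8% of all genes. DESeq2 called 3, where it called 1.78% of all genes. The median log2 fold change of the 54 was 0.03.

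The gene called was HAS3, a hyaluronan synthase that consumes UDP-GlcNAc at the plasma membrane. It had 18.7, 19.2 and 17.8 CPM in neg.si and 5.38, 5.81 and 5.85 CPM in RIPK4.si, and the groups were far apart. HAS3 fell by 1.71 on the log2 scale (edgeR adjusted p = 0.00655, standard error 0.162). Over the alternatives its adjusted p lay between 3.16e-14 and 0.105, and the call was lost without neg.si replicate 2 or any single RIPK4.si replicate. In the same list of hyaluronan, heparan sulfate and other users and transporters (12 of 13 tested), SLC35B4, a nucleotide sugar transporter, had 58.1, 74.5 and 85.8 CPM in neg.si and 44.1, 36.1 and 44.8 CPM in RIPK4.si. Its log2 fold change of -0.80 did not pass with edgeR (adjusted p = 0.0972) and passed with DESeq2 (adjusted p = 0.00721). EXTL3, a glycosyltransferase of heparan sulfate synthesis, had 61.5 ± 10.5 CPM for neg.si and 92.0 ± 10.1 CPM for RIPK4.si (SD, n = 3 each), or 0.58 on the log2 scale (adjusted p = 0.208, edgeR; 0.0463 after removal of the GC trend). The median of this list was 0.05, and 4 of its 12 genes had an unadjusted p under 0.05, against 10.8% of all genes tested. The fourth beside HAS3, SLC35B4 and EXTL3 was HAS2, another hyaluronan synthase, named after its values were seen. HAS2 had 26.1, 28.5 and 32.6 CPM in neg.si and 35.2, 49.0 and 41.9 CPM in RIPK4.si. It was higher in RIPK4.si by 0.53 on the log2 scale without overlap of the groups, and did not pass the test (unadjusted p = 0.0138, adjusted p = 0.27, edgeR).

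Among the 14 genes of precursors and side branches, none was called with edgeR or DESeq2, 2 had an unadjusted p under 0.05 (RENBP and, named after its values were seen, UGP2 at 0.34 on the log2 scale), and the median log2 fold change was 0.05. RENBP, which interconverts GlcNAc and N-acetylmannosamine, had 35.7, 27.9 and 19.7 CPM in neg.si and 36.8, 51.8 and 39.0 CPM in RIPK4.si (log2 fold change 0.62, adjusted p = 0.358, edgeR). After removal of the GC trend RENBP was called (adjusted p = 0.0411, edgeR), where 556 of all 16239 genes tested were called. Its highest neg.si library nearly reached its lowest RIPK4.si library.

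Of the 12 users in N-glycan and GPI anchor synthesis, 10 were tested and none was called by either tool, with a median of 0.17 and 0 unadjusted p under 0.05. The smallest p in each direction belonged to PIGA, the catalytic subunit of the first GPI anchor step (log2 fold change 0.36, adjusted p = 0.496, edgeR), and to GNPTAB, a subunit of the enzyme that tags lysosomal hydrolases (-0.16, adjusted p = 0.952). The 5 genes of the sialic acid branch had a median of 0.11 and no call or unadjusted p under 0.05. GNE, the key enzyme of that branch, differed by -0.29 on the log2 scale and CMAS, which activates sialic acid, by 0.13 (adjusted p = 0.776 and 0.868, edgeR).

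Of the 7 genes for lysosomal release of GlcNAc, AGA, the aspartylglucosaminidase that cleaves GlcNAc from asparagine, stood apart. It had 94.2, 93.4 and 98.1 CPM in neg.si and 63.8, 61.6 and 59.6 CPM in RIPK4.si, with a wide gap between the groups. Its difference of -0.63 on the log2 scale, with a standard error of 0.133, did not pass with edgeR (adjusted p = 0.0788) and passed with DESeq2 (adjusted p = 0.00854). The median of this list was -0.06. Of the 6 partners of OGT, 0 were called by either tool and 0 had an unadjusted p under 0.05, with a median of -0.02. Their log2 fold changes ran from -0.25 for TET1 (adjusted p = 0.835, edgeR) to 0.15 for TET3 (adjusted p = 0.873), both DNA demethylases.

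**Figure D5:**
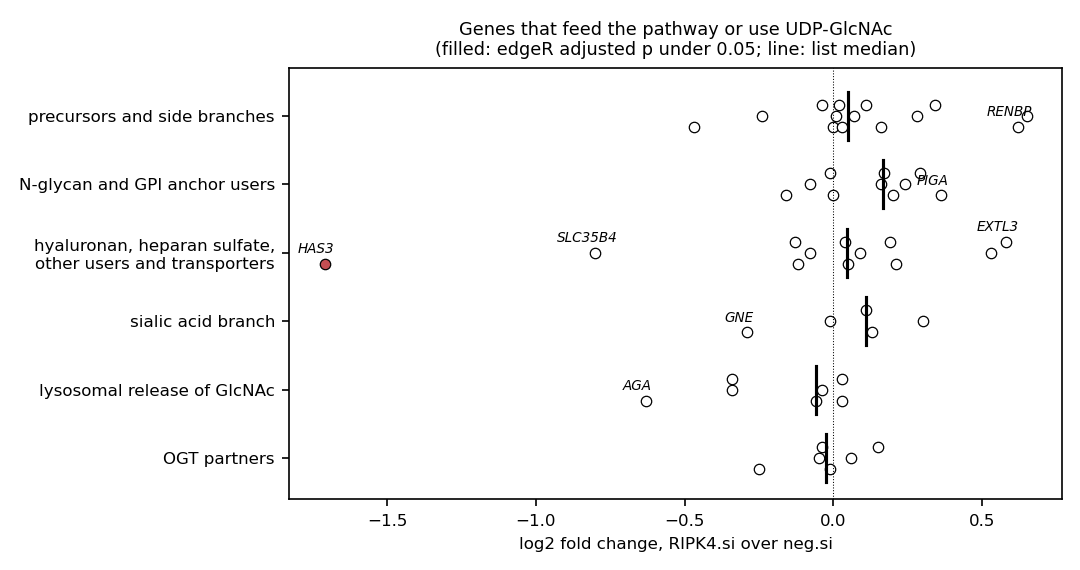
Log2 fold change of RIPK4.si over neg.si (horizontal axis) for the tested genes of the 6 lists, each point a gene, with the list median as a line and genes of edgeR adjusted p under 0.05 filled. HAS3, at -1.71, is the filled point, and the list medians lie between -0.06 and 0.17.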

How the data were processed

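The authors made poly(A) libraries from WM266.4 cells, used Cutadapt on the paired reads, TopHat for alignment (GRCh38.p13) and HTSeq, ignoring strand, for gene counts. The deposited counts are whole numbers without normalization, over 24526 genes, and the lowest total of a gene is 6. The table also holds the authors' normalized values (a signal, counts divided by DESeq2 size factors), fold change, log2 fold change, its standard error as a score, and p-value; the deposited fold, log2, score, signal and p-value columns were not used.

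Counts were tested with edgeR 4.0.16 in R 4.3.3: TMM, its filter on low counts (16297 genes left) and the quasi-likelihood test with Benjamini-Hochberg adjustment over all these genes; genes with adjusted p under 0.05 were called. DESeq2 1.42.0 was an alternative. Replicates were biological, per the study's methods. Deviations of same-numbered libraries from the group means correlated at -0.242, 0.251 and 0.346. The paper describes independent experiments, and these correlations cannot decide whether same-numbered libraries shared one. The main test was therefore left unpaired, with a replicate block among the alternatives. No pair of replicates differed by as little as sampling noise (chi-square per degree of freedom 18.4 to 132). GENCODE release 44 held 24416 of the identifiers and gave transcript length, GC content and overlaps; positions are those of the deposited table.

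The members and lists were chosen with earlier results of these data known. Named genes were the 9 members, RIPK4, from each list every called gene and, beside these, the gene of smallest p in each direction, and the 5 genes nearest in pattern to UAP1L1. The values of 2 genes that this rule names are not reported here. Alternatives were other normalizations and filters, DESeq2, a replicate block and each library left out.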

Additional observations from a re-analysis of the deposited data

How the results depend on the processing

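The log2 fold change of UAP1L1 lay between 1.51 and 1.63 with each library left out in turn and between 1.5 and 1.57 under the other alternatives. Its share of the UAP1 pair differed by 17.2 to 20.4 percentage points with a library left out. These ranges are descriptions and no test, since UAP1L1 was chosen for its rise in these same libraries. None of the other 8 genes was called under any alternative, with adjusted p between 0.16 and 0.999, or as low as 0.114 (GFPT2) with the GC trend removed. With a library left out, UAP1 lay between 0.14 and 0.39, GFPT1 between 0.10 and 0.39, GNPNAT1 between 0.05 and 0.45, PGM3 between 0.23 and 0.36 and GFPT2 between -0.57 and -0.38. Leaving out a library turned the sign of 3 genes, none of them called. OGT lay between -0.06 (neg.si replicate 1 left out) and 0.26. OGA lay between -0.18 and 0.12, and was positive after neg.si replicate 3 (0.12) or RIPK4.si replicate 2 (0.10) was left out. NAGK lay between -0.12 and 0.21, with -0.02 and -0.12 after neg.si replicate 2 or 3 was dropped and -0.01 after RIPK4.si replicate 1 or 2 was. The difference in the GFPT2 share lay between -3.97 and -1.75 points and that in the OGT to OGA log2 ratio between 0.07 and 0.22 with a library left out.

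Over all genes, the 125 calls (61 higher, 64 lower) became 437 (221 and 216) with DESeq2 and 556 (276 and 280) with the GC trend removed, which was added knowing the data, and 0 to 295 (0 to 122 higher, 0 to 173 lower) with a library left out. Leaving out neg.si replicate 2, RIPK4.si replicate 1 or RIPK4.si replicate 3 gave 0 calls in edgeR, with 1153, 1426 and 1086 genes at an unadjusted p under 0.05. The count was 4 for RIPK4.si replicate 2 left out, 70 for neg.si replicate 1 and 295 for neg.si replicate 3. In the list with HAS3, 1 call became 2 with DESeq2 (HAS3 and SLC35B4), where 437 of all 24526 genes were called. With the GC trend removed the count was 3 (HAS3, SLC35B4 and EXTL3), where 556 of all 16239 genes tested were called. The count was 0 without neg.si replicate 2 or any single RIPK4.si replicate (range 0 to 1). The lysosomal list had 1 call (AGA) with DESeq2 or the GC trend removed, and the precursors 1 (RENBP) with the GC trend removed. The cause was not tested. The replicate block gave 131 calls, and no call among the 8 genes or change of the ratios (-2.89 points and 0.14). The lowest counts among the 9 genes, and with them the largest counting error, were those of GFPT2, at 198 to 332 a library.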
